A study of Bos taurus with 40 samples.

Results

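Abdominal fat and longissimus dorsi muscle of the same 10 Korean cattle were compared within each animal. The comparison used 20 of the 40 RNA-seq libraries of the series, 10 of fat and 10 of muscle, which were joined by the ear tag of the animal they came from. Korean cattle is a beef breed, and the 5 cows and 5 bulls were slaughtered at over 22 months of age with a carcass weight of 353 ± 36 kg. No animal received a treatment according to the labels, and the remaining 20 libraries, of liver and pituitary gland, served here only to look for RNA of those organs. The study asked how gene expression differs between the sexes in each tissue, and the pairing of tissues within an animal allows the difference between fat and muscle to be measured free of differences between animals. Reads counted on genes ranged from 8596267 to 14308316 per fat library and from 5173092 to 14757624 per muscle library, a difference that did not pass an exact sign-flip permutation test over the 10 pairs (two-sided p = 0.225).

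White adipose tissue stores energy as triacylglycerol in a single large droplet per cell, and in cattle it is also the main site where fatty acids are made from acetate. Its cells are set up by the receptor PPARG and the CEBP factors and release hormones such as leptin. Skeletal muscle fibres are packed with sarcomeres, the repeating units of actin and myosin filaments that shorten when calcium leaves the sarcoplasmic reticulum, and they cover their need for ATP from creatine phosphate, glycogen, glucose and fatty acids. The longissimus is the large muscle along the spine from which loin cuts are taken, and fat cells between its fibres form the marbling of beef.

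The labels of tissue were checked against marker genes. Levels are given as CPM, a gene's reads in every 1000000 reads on genes, scaled by the trimmed mean of M-values (TMM), and are not divided by gene length. The summed level of 7 adipocyte markers was 7320 to 24564 CPM in fat and 119 to 1042 CPM in muscle. That of 10 muscle fibre markers was 118989 to 186537 CPM in muscle and 24.0 to 157 CPM in fat, so neither sum overlapped between tissues. XIST, the RNA that coats the inactive X chromosome, was at 304 to 944 CPM in the fat of cows and at most 1.34 CPM in the fat of bulls. The Y-linked gene USP9Y was at 27.1 to 32.8 CPM in the fat of 4 bulls but at 1.71 CPM in the fat of bull 5, whose muscle held 77.3 CPM.

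Mean Pearson's r with the other fat libraries was lowest for the fat of bull 5 (0.901), cow 5 (0.919), cow 2 (0.929) and cow 4 (0.932), and 0.940 to 0.957 for the rest. In several genes, chosen after their values were seen, the fat libraries of cow 2 and bull 5 lay outside the range of the other 8. KIF5B, the heavy chain of kinesin, was at 8.38 and 4.17 CPM in them against 63.0 to 497 CPM in the others, and the RNA helicase DDX3X was at 12.7 and 4.54 CPM against 75.7 to 408 CPM. In the opposite direction CFD, the complement factor adipsin, was at 213 and 209 CPM against 21.8 to 65.6 CPM, and the endothelial gene CLDN5 at 547 and 683 CPM against 70.6 to 162 CPM. Ribosomal protein genes took 8.24% of the reads in the fat of bull 5, the highest share of the 20 libraries. The part of these differences in the results was not tested, and the main counts, lost calls and differences that moved by over 1.5 times are given below also without these animals. Whether the fat of bull 5, low in USP9Y, was a mixed sample was not tested.

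Reads of genes that define one organ were found at a low level in libraries of every other organ. By library size alone, PRL, the prolactin gene, averaged 203572 CPM in pituitary gland, 76.5 CPM in fat, 60.3 CPM in muscle and 70.1 CPM in liver. The level of PRL varied between libraries, from 18.6 to 151 CPM in fat and from 0.193 CPM in bull 3 to 102 CPM in muscle. The skeletal actin gene ACTA1 averaged 47561 CPM in muscle and 18.5 CPM in fat, 0.0389% of the muscle level, beside 11 CPM in liver and 12.5 CPM in pituitary gland. FABP4, the fatty acid binding protein of adipocytes, behaved otherwise: muscle averaged 34.4 CPM, while liver averaged 1.97 CPM and pituitary gland 1.80 CPM. Whether reads passed between libraries was not tested, so for a gene strongly expressed in one organ, a level of this size in the other and reads from elsewhere cannot be told apart.

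Fat and muscle differed in most of the genes measured. Of 12880 genes with a read, 3438 (26.7%) were higher in muscle and 4003 (31.1%) higher in fat in edgeR's quasi-likelihood test with animal as a block, at a Benjamini-Hochberg adjusted p under 0.05. Against a threshold of 2-fold, 1728 genes (13.4%) were called higher in muscle and 1852 (14.4%) higher in fat, and these calls are meant below by "beyond 2-fold". Without cow 2 and bull 5 they numbered 1528 and 1770. In 1180 genes (9.16%) every muscle library exceeded every fat library, and in 896 genes (6.96%) the reverse held. Pearson's r across genes averaged 0.940 between fat libraries, 0.961 between muscle libraries and 0.789 between fat and muscle of 1 animal, and genes are not independent replicates. In these bulk samples fewer cells of a type and less RNA per cell cannot be told apart.

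The muscle libraries were dominated by fewer genes. The 10 most counted genes took 18.5% to 27.3% of the reads in muscle and 9.38% to 13.0% in fat, higher in muscle in 10 of 10 animals (exact sign-flip permutation test, two-sided p = 0.00195, the smallest that 10 pairs allow). Between 11396 and 11858 genes had a read in fat and between 10665 and 11665 in muscle, with fat ahead in 10 of 10 animals (exact permutation p = 0.00195). Over 8 such measures the adjusted p of both was 0.00312. TMM scaling corrects for this composition, and the median log2 fold change over all genes, written as muscle to fat throughout, was -0.14, and -0.13 with the 202 genes that had no read in one tissue and over 3 in the other set to their bound. Without it, by library size alone, the median was -0.87 and the calls beyond 2-fold split into 953 higher in muscle and 4014 higher in fat, so that the share higher in muscle was 19.2% in place of 48.3%. Changes near 0 therefore have no firm direction.

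**Figure D1:**
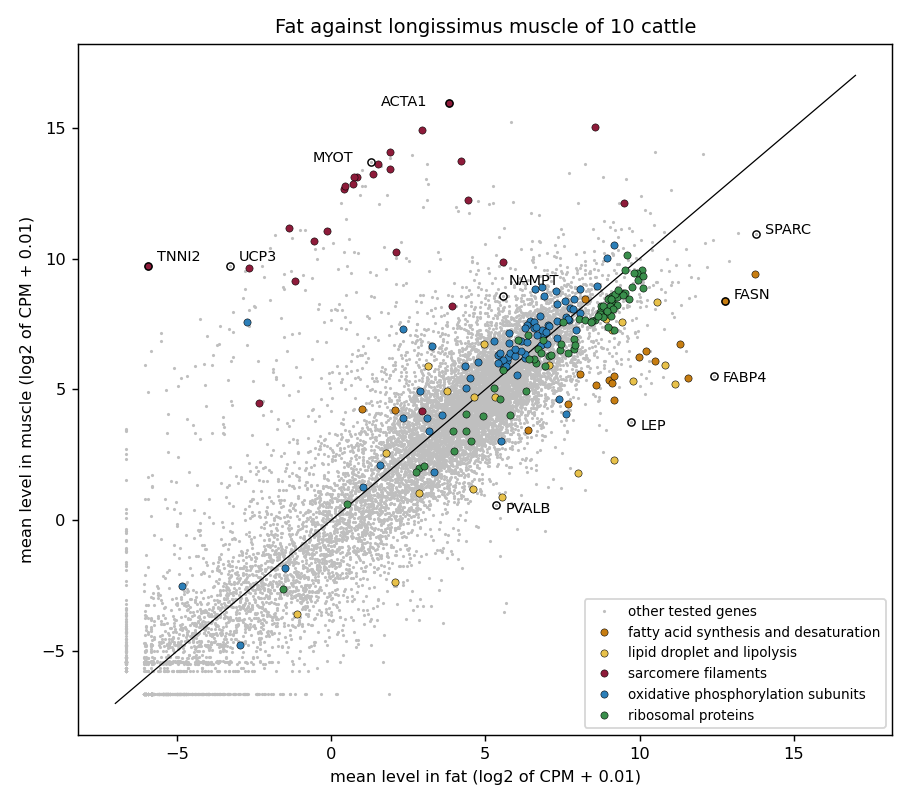
Mean level in fat (x axis) against mean level in muscle (y axis), both as log2 of CPM + 0.01 over 10 animals, with each dot a gene and the line marking equal levels. Sarcomere genes such as ACTA1 lie far above the line and genes of fatty acid synthesis such as FASN below it, while most ribosomal protein genes lie just under it.

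The genes with the largest differences in favour of muscle, among those with at least 100 CPM, were mainly genes of the contractile apparatus. TNNI2, the inhibitory troponin subunit of fast fibres, was at 212 to 1422 CPM in muscle (median 754) and had 1 read in the 10 fat libraries against 66575 in muscle, a ratio of 128619 with a 95% counting interval of 23084 to 5080250. ACTA1 was at 38868 to 98039 CPM in muscle (median 63698) and at 1.78 to 49.6 CPM in fat (median 9.43), a log2 fold change of 12.83 ± 0.49 (SE over 10 animals). MYOT, which encodes the Z-disc protein myotilin, was at 4648 to 21643 CPM in muscle and at 0.394 to 8.64 CPM in fat (12.90 ± 0.53). The regulatory light chains MYLPF and MYL2 and the myosin-binding protein gene MYBPC1 differed by 12.83 ± 0.46, 12.75 ± 0.56 and 12.68 ± 0.40. The highest fat value of ACTA1, MYOT, MYLPF, MYL2 and MYBPC1 came each time from cow 5, and without cow 5 the difference of ACTA1 was 13.09.

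Not all of the 8 leading muscle genes belonged to the sarcomere. UCP3, a mitochondrial carrier related to the uncoupling protein of brown fat, was at 199 to 2514 CPM in muscle (median 740.0) and at 0 to 0.501 CPM in fat, with 0 as its median there. Its log2 fold change was 13.03 ± 0.46, 14.02 without cow 2 and 14.32 without cow 2 and bull 5. PPP1R3A, which anchors protein phosphatase to glycogen, was at 417 to 4990 CPM in muscle and at 0 to 1.06 CPM in fat (12.81 ± 0.42). The edgeR adjusted p against 2-fold of these 8 genes lay between 6.01e-13 for TNNI2 and 1.65e-09 for ACTA1.

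The leading genes of fat had smaller changes, and included genes of lipid handling. FABP4 was at 1067 to 13908 CPM in fat (median 4979) and at 5.50 to 165 CPM in muscle (median 24.4), a log2 fold change of -7.42 ± 0.70 or 171-fold. THRSP, a nuclear protein that accompanies fatty acid synthesis, was at 1242 to 4375 CPM in fat and 2.91 to 164 CPM in muscle (-6.92 ± 0.70). CIDEC, which joins lipid droplets into larger ones, was at 1460 to 5152 CPM in fat and 3.79 to 177 CPM in muscle (-6.70 ± 0.59). LEP, the gene of the satiety hormone leptin, was at 463 to 2133 CPM in fat (median 701) and at 1.17 to 53.4 CPM in muscle (median 8.76), a 90.9-fold difference. In all 4 genes the highest muscle value came from cow 5, and without cow 5 their differences ran from -7.80 for FABP4 to -6.82 for LEP.

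The other genes of this group were CYP2B6, a cytochrome P450 that oxidizes drugs and steroids, at 83.4 to 832 CPM in fat and 0.399 to 8.99 CPM in muscle (-7.38 ± 0.46), and SNCG, which encodes gamma-synuclein (-7.11 ± 0.72, and -6.29 without cow 2 and bull 5). QPRT, an enzyme that makes NAD from tryptophan, differed by -6.54 ± 0.52. PCK2, the mitochondrial phosphoenolpyruvate carboxykinase, was at 173 to 964 CPM in fat and at 1.22 to 18.5 CPM in muscle (-6.50 ± 0.46). Their edgeR adjusted p against 2-fold lay between 1.03e-08 for CYP2B6 and 2.71e-07 for SNCG. Muscle libraries of every animal thus held reads of adipocyte genes, at 0.501% of the mean fat level for FABP4 and 0.914% for LEP by library size alone.

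**Figure D2:**
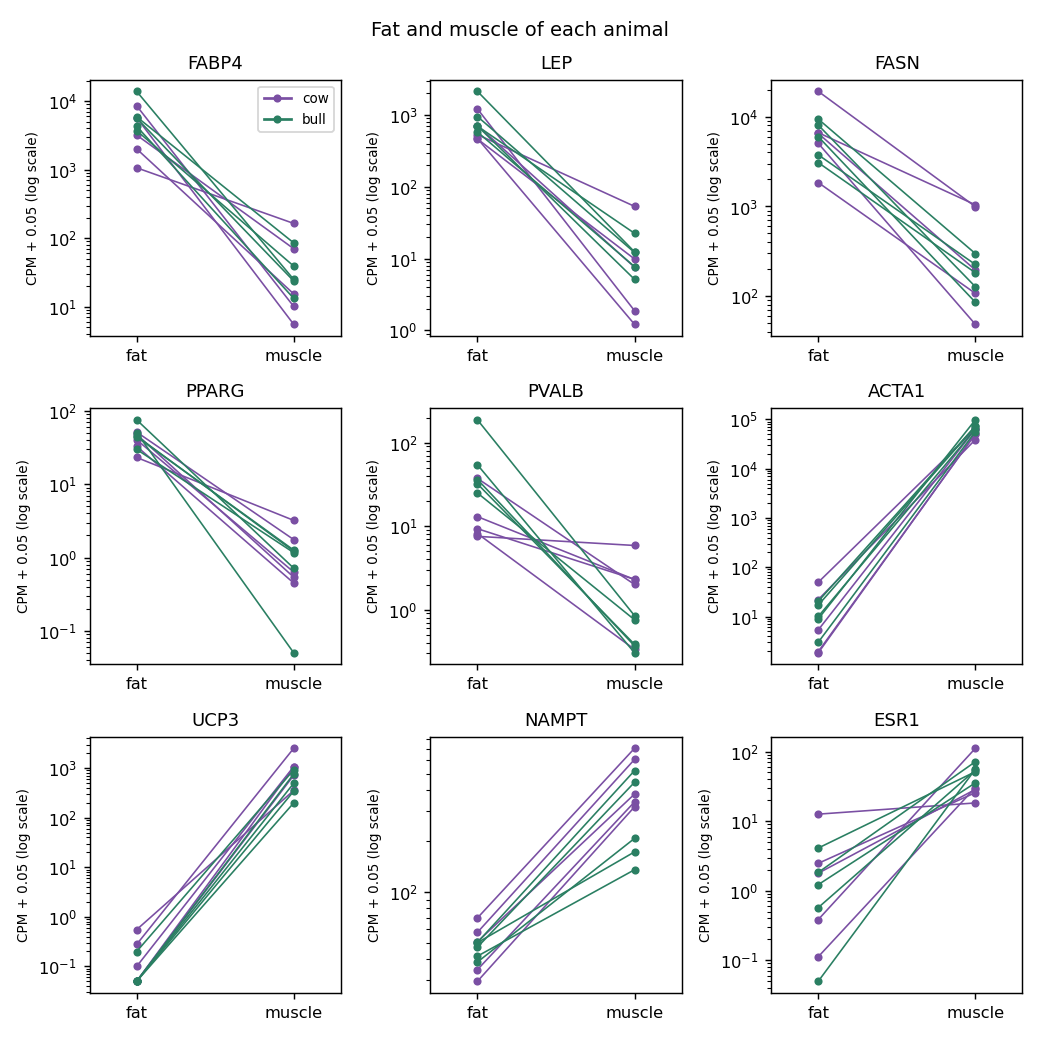
Level of 9 genes in the fat and the muscle of each animal, as CPM + 0.05 on a log axis, with a line joining the samples of 1 animal and cows and bulls in different colours. FABP4, LEP, FASN, PPARG and PVALB fall from fat to muscle in every animal, and ACTA1, UCP3, NAMPT and ESR1 rise.

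Genes of fatty acid synthesis and desaturation had the largest share of calls in fat of the metabolic lists. Of 18 tested, 15 were beyond 2-fold higher in fat and 2 higher in muscle, where 14.4% and 13.4% of all genes were so called, with a median log2 fold change of -3.72 beside -0.14 over all genes. FASN, the fatty acid synthase, was at 1847 to 19199 CPM in fat (median 6261) and at 48.5 to 1044 CPM in muscle (median 189), with cow 4 highest in fat and cows 4 and 5 highest in muscle (-4.80 ± 0.38). SCD, the desaturase that turns stearic into oleic acid, was at 5490 to 22314 CPM in fat and 161 to 1733 CPM in muscle (-4.60 ± 0.26). ELOVL6, which lengthens palmitic acid, differed by -4.65 ± 0.44. Both exceptions were desaturases: SCD5 was at 3.04 to 51.5 CPM in muscle and 0.614 to 3.20 CPM in fat (3.10 ± 0.41), and FADS2, the first step towards long polyunsaturated fatty acids, differed by 2.31 ± 0.26.

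Storage of fat showed the same direction with more exceptions. In the list of lipid droplet and lipolysis genes 12 of 21 were beyond 2-fold higher in fat and 1 in muscle (median -1.86), and in that of fatty acid uptake and triacylglycerol synthesis 10 of 16 and 3 (median -1.91). G0S2, an inhibitor of the lipase that opens triacylglycerol stores, was at 67.4 to 2925 CPM in fat and 1.0 to 11.5 CPM in muscle (-5.97 ± 0.59), and CIDEA, a relative of CIDEC, differed by -5.96 ± 0.43. DGAT2, which adds the last fatty acid to triacylglycerol, was at 1770 to 5038 CPM in fat (median 2711) and 17.6 to 319 CPM in muscle (median 58.7), with no overlap (-5.58 ± 0.45).

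Beyond 2-fold, 4 genes on these lists were higher in muscle. FITM1, which partitions triacylglycerol into droplets, was at 36.6 to 107 CPM in muscle and 4.44 to 21.4 CPM in fat (2.89 ± 0.26). It overlaps DCAF11 in the RefSeq annotation. The fatty acid transporter gene SLC27A1 differed by 2.47 ± 0.32 without overlap between tissues. LPIN1, the lipin that removes phosphate from phosphatidic acid, was at 145 to 1588 CPM in muscle and 5.94 to 699.7 CPM in fat, so that the groups overlapped (2.68 ± 0.38). MOGAT1 rested on 44 reads in muscle and 1 in fat, a ratio of 85.0 with a 95% counting interval of 14.5 to 3433.

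Among genes of secreted adipocyte proteins 10 of 16 were beyond 2-fold higher in fat and 1 in muscle (median -2.22). RBP4, the carrier of retinol in blood, was at 428 to 2382 CPM in fat and 14.4 to 117 CPM in muscle (-5.28 ± 0.43). The single gene called in muscle was NAMPT, an enzyme of NAD synthesis that is also released by fat cells: every muscle library, at 135 to 706 CPM, exceeded every fat library, at 29.6 to 70.2 CPM (2.90 ± 0.21). RETN, the resistin gene, had 39 reads in fat and 0 in muscle. With a floor of 3 reads over the group this puts fat at least 6.73-fold higher, but the call was lost when any of 8 animals was left out, and also without cow 2 and bull 5 together (edgeR adjusted p against 2-fold = 0.139) and in DESeq2 and limma voom.

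Of 13 adipogenic transcription factors tested, 4 were beyond 2-fold higher in fat and 2 in muscle, and the median was -0.88. PPARG, the receptor that drives fat cell differentiation, was at 23.2 to 75.7 CPM in fat (median 45.0) and 0 to 3.16 CPM in muscle (median 0.891), a 45.0-fold difference. CEBPA was at 71.1 to 179 CPM in fat and 1.17 to 6.45 CPM in muscle (-4.78 ± 0.28). The members called in muscle were KLF5, at 14.5 to 119 CPM there and 1.81 to 7.37 CPM in fat (3.56 ± 0.37), and STAT5B, a transducer of growth hormone signals (2.70 ± 0.62, and 2.08 without cow 2 and bull 5), which ranged from 0.0744 to 15.8 CPM in fat. By library size alone the number called in fat was 8.

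Nearly every gene of the contractile apparatus was called in muscle. This held for 25 of 26 sarcomere filament genes (median log2 fold change 11.59), 30 of 30 genes of the Z-disc, M-band and costamere (median 10.29) and 25 of 26 genes of excitation-contraction coupling (median 6.98). The fast myosin heavy chain MYH2 was at 12545 to 64170 CPM in muscle and 1.04 to 25.4 CPM in fat (12.39 ± 0.42). ACTN2, the alpha-actinin that crosslinks thin filaments at the Z-disc, and the LIM protein CSRP3 differed by 12.61 ± 0.42 and 12.32 ± 0.47. Genes within the myosin, troponin and actin families share sequence, and their counts may be too low where reads matched several of them.

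The calcium handling genes included the 1 exception of the coupling list. CACNG1, a subunit of the calcium channel in the transverse tubules, had 10587 reads in muscle and 2 in fat. SLN, the small protein sarcolipin that binds the calcium pump, was at 326 to 1494 CPM in muscle and 0 to 0.530 CPM in fat (11.98 ± 0.53), and the pump of fast fibres ATP2A1 at 5353 to 22871 CPM and 2.11 to 23.2 CPM (10.82 ± 0.27). PVALB, the calcium buffer parvalbumin known from fast muscle of small mammals, was called in the other direction. Its level was 7.5 to 187 CPM in fat (median 28.5) and 0.255 to 5.82 CPM in muscle (median 0.753), with no overlap and a difference of -4.46 ± 0.78. In fat bull 5 was highest by a wide margin, and the lowest fat value and the highest muscle value both belonged to cow 5.

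**Figure D3:**
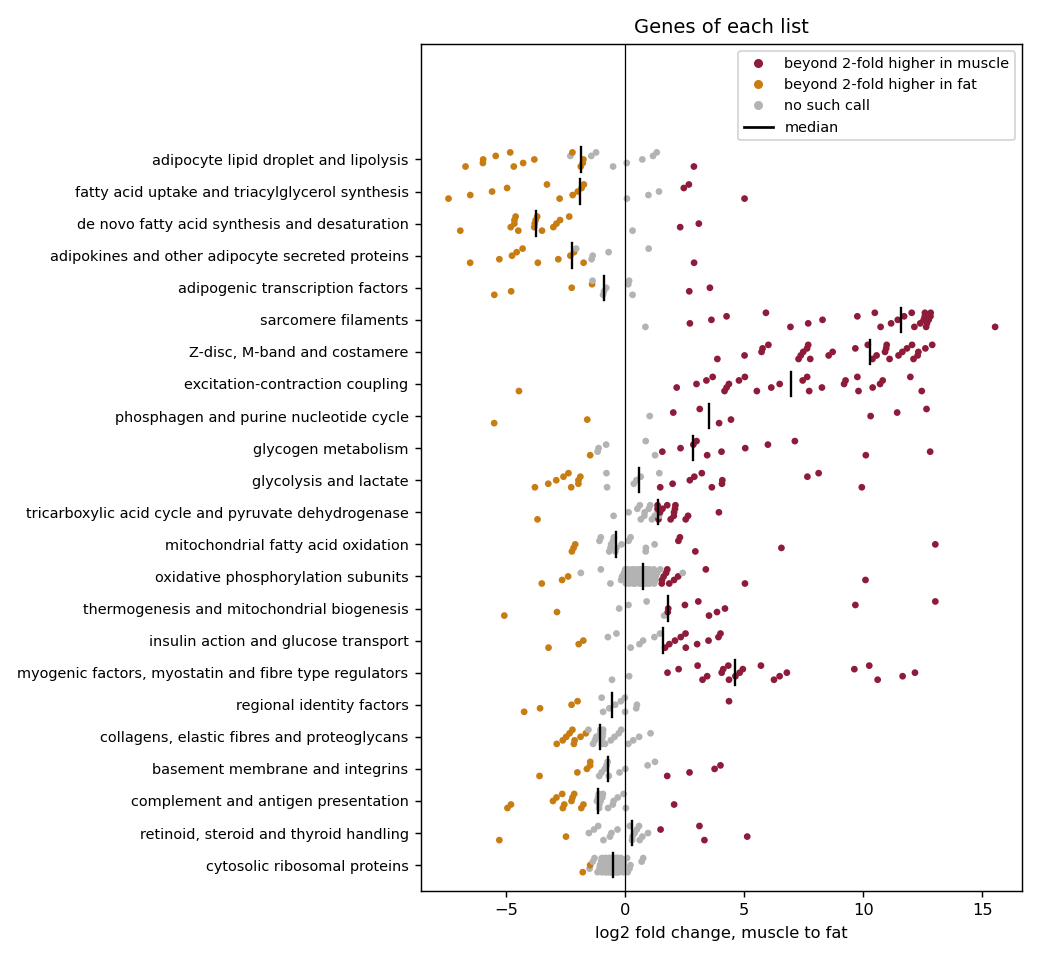
Log2 fold change, muscle to fat, of each tested gene of 23 lists, with genes called beyond 2-fold coloured by the tissue they were higher in and a bar at each median. The contractile lists lie right of 0 apart from PVALB, the lists of lipid synthesis and storage mostly left of it, and glycolysis spreads to both sides.

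Genes that buffer or recycle ATP were largely muscle-sided, with 7 of 10 called in muscle and 2 in fat (median 3.54). CKM, the cytosolic creatine kinase of muscle, was at 9627 to 19772 CPM in muscle and 0.545 to 14.2 CPM in fat (12.66 ± 0.44). Its mitochondrial partner CKMT2 differed by 11.43 ± 0.40 and AMPD1, the muscle AMP deaminase, by 10.31 ± 0.32. CKB, the brain-type creatine kinase, was called in fat, at 35.1 to 489 CPM against 2.23 to 8.10 CPM in muscle (-5.50 ± 0.48). GATM, the first enzyme of creatine synthesis, also was called in fat (-1.59 ± 0.31), but not without animal as a block (-1.54) nor when any of 5 animals was left out, nor in DESeq2 or limma voom.

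Glycogen genes were called in muscle for 11 of 17 members and in fat for 1 (median 2.87). PYGM, the muscle glycogen phosphorylase, was at 5567 to 13887 CPM in muscle and 2.03 to 14.6 CPM in fat (10.11 ± 0.29). PYGB, the brain form of the phosphorylase, was the member called in fat, at 18.7 to 34.0 CPM against 5.02 to 15.9 CPM (-1.47 ± 0.14, edgeR adjusted p against 2-fold = 0.0103, and not past that threshold in limma voom). Of glycolysis and lactate genes 11 of 26 were called in muscle and 9 in fat, and their median of 0.57 turned to -0.24 by library size alone.

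The tricarboxylic acid cycle and pyruvate dehydrogenase were muscle-sided, with 14 of 28 genes beyond 2-fold and a median of 1.36, although by library size alone 3 were. IDH2, the NADP-dependent isocitrate dehydrogenase of mitochondria, was at 367 to 818 CPM in muscle and 28.1 to 67.2 CPM in fat (3.94 ± 0.19), and SUCLA2, the ATP-forming succinyl-CoA synthetase subunit, differed by 2.65 ± 0.11. The member called in fat was PC, the pyruvate carboxylase that feeds citrate export for fatty acid synthesis, at 212 to 896 CPM in fat and 16.5 to 71.6 CPM in muscle (-3.68 ± 0.25). It overlaps LRFN4 in the RefSeq annotation. Fatty acid oxidation had no such lean: 5 of 23 genes were called in muscle and 3 in fat, and the median was -0.36. FABP3, the heart-type fatty acid binding protein, and CPT1B, the muscle form of the enzyme that admits fatty acids to mitochondria, differed by 6.57 ± 0.44 and 2.95 ± 0.29. ECHS1, DECR1 and ACAA2, enzymes of the oxidation spiral, were called in fat at -2.16 ± 0.17, -2.23 ± 0.22 and -2.09 ± 0.16.

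Subunits of oxidative phosphorylation moved by small amounts. Of 77 tested, 11 (14.3%) were beyond 2-fold higher in muscle and 3 (3.90%) higher in fat, against 13.4% and 14.4% of all genes. Without a fold threshold 38 passed in muscle and 5 in fat, where 26.7% and 31.1% of all genes did. The median of 0.74 turned to -0.08 by library size alone. The 3 in fat, COX6A1 (-3.5 ± 0.33), COX7A2 (-2.39 ± 0.31) and COX8A (-2.64 ± 0.37), are the broadly expressed forms of cytochrome c oxidase subunits. Their heart and muscle forms were called in muscle, with COX6A2 at 92.1 to 576 CPM there against 0 to 0.640 CPM in fat (10.10 ± 0.53, and 10.77 without bull 2), and COX8B at 5.03 ± 0.65.

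Among genes of thermogenesis and mitochondrial biogenesis 9 of 15 were called in muscle and 2 in fat (median 1.81). After UCP3, the member with the largest difference was C16H1orf170, also known as PERM1, a regulator of mitochondria in muscle, at 412 to 1136 CPM in muscle and 0.261 to 4.30 CPM in fat (9.67 ± 0.37). UCP2, a broadly expressed relative of UCP3, was at 84.4 to 579 CPM in fat and 15.0 to 67.4 CPM in muscle (-2.86 ± 0.36). UCP1, the uncoupling protein of brown and beige fat, stayed at 0 to 5.23 CPM in fat and 0 to 0.285 CPM in muscle. In fat 4 animals, cows 4 and 5 and bulls 1 and 2, had 4.41 to 5.23 CPM, and the other 6 had 0 to 0.967 CPM.

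In a chosen set of 22 families, enzymes and carriers that exist as several genes often split between the tissues. Of 20 families with at least 2 members tested, 15 had a member beyond 2-fold higher in fat and another beyond 2-fold higher in muscle. Over all genes 14.4% were so called in fat and 13.4% in muscle. The share of split families outside this set was not computed, so the count describes these families only. The largest separation was in creatine kinase, with CKB at -5.50 and CKM at 12.66. Fatty acid binding proteins separated by FABP4 in fat and FABP3 in muscle. Acetyl-CoA carboxylase, whose product is both the building block of fatty acids and the brake on their oxidation, separated into ACACA, at 263 to 3489 CPM in fat and 27.7 to 257 CPM in muscle (-3.75 ± 0.29), and ACACB, at 476 to 2658 CPM in muscle and 0.552 to 3.24 CPM in fat (9.29 ± 0.23). The ACACA ranges lay apart, with a narrow gap, and those of ACACB lay far apart.

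Among the families counted above, glycolysis showed this pattern at 4 steps. Phosphofructokinase separated into PFKL (-2.38 ± 0.15) and PFKP (-1.96 ± 0.21) in fat and PFKM in muscle, which was at 1566 to 6231 CPM there and 11.3 to 25.1 CPM in fat (7.66 ± 0.17). Phosphoglycerate mutase separated into PGAM1 (-2.26 ± 0.23) and PGAM2 (9.94 ± 0.32), and enolase into ENO1 (-1.88 ± 0.22) and ENO3 (8.13 ± 0.27). LDHB, the lactate dehydrogenase form of heart, was at 841 to 4199 CPM in fat and 89.6 to 789.9 CPM in muscle (-2.59 ± 0.36), and LDHA, the form of fast muscle, at 214 to 663 CPM in muscle and 9.55 to 58.9 CPM in fat (4.07 ± 0.32). Aldolase, which was not among the families counted above, separated as well. ALDOA, the muscle aldolase, differed less, at 2300 to 9412 CPM in fat and 9135 to 33026 CPM in muscle (2.0 ± 0.28). It was called in muscle, though not by library size alone, and was among the 10 most counted genes of both tissues. Its relative ALDOC was called in fat (-2.89 ± 0.32), as were the hexokinase HK3 (-3.23 ± 0.45), the pyruvate kinase PKLR (-1.96 ± 0.38, not past the threshold in DESeq2) and the lactate carrier SLC16A7 (-3.79 ± 0.33).

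Families outside glucose metabolism separated too. The adenine nucleotide carriers SLC25A5 (-2.29 ± 0.26) and SLC25A6 (-2.07 ± 0.34) were called in fat and SLC25A4 in muscle (3.57 ± 0.31). Elongation factor EEF1A1 was at 141 to 612 CPM in fat and 61.0 to 192 CPM in muscle (-1.69 ± 0.28), while EEF1A2, its form in muscle and neurons, was at 3015 to 6835 CPM in muscle and 0.894 to 11 CPM in fat (11.02 ± 0.35). CAV1, the caveolin of adipocytes and endothelium, was called in fat (-1.83 ± 0.16) and CAV3 in muscle (7.69 ± 0.36), while CAV2 passed no test (-0.63 ± 0.49) unless bull 5 (-0.92), cow 2 and bull 5 (-1.22) or the block (-0.99) was left out. Among the PPAR receptors PPARG was called in fat and PPARA in muscle (3.07 ± 0.32), and PPARD had a difference of -0.25 ± 0.24 that did not pass the test.

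Other families had no opposite calls. Both sarcoplasmic calcium pumps, ATP2A1 and ATP2A2 (6.14 ± 0.37), and both catalytic subunits of AMP kinase, PRKAA1 (2.51 ± 0.18) and PRKAA2 (3.52 ± 0.23), were called in muscle. ACTN3 (10.56 ± 0.20) and FLNC (8.55 ± 0.52) were called in muscle, while their relatives ACTN1, ACTN4 and FLNA had differences of -1.18, -0.67 and -1.01, none beyond 2-fold. FLNC ranged widely in muscle, from 3263 to 174744 CPM.

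**Figure D4:**
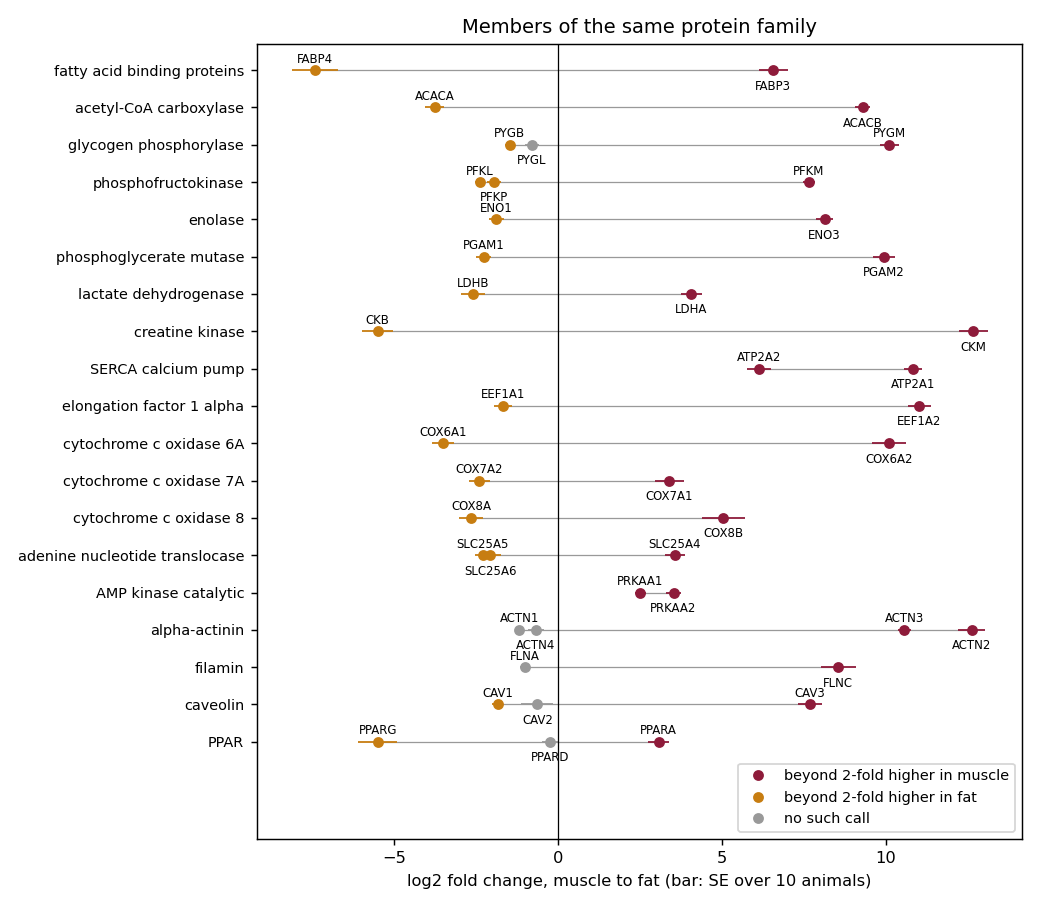
Log2 fold change, muscle to fat, of members of protein families, with a bar of 1 SE over 10 animals and a line joining members of a family. In 15 families the members called beyond 2-fold lie on both sides of 0, as CKB at -5.50 and CKM at 12.66 do.

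Genes of insulin action and glucose uptake were called in muscle for 10 of 20 members and in fat for 3 (median 1.57). SLC2A4, the insulin-dependent glucose transporter, was at 88.3 to 700.5 CPM in muscle (median 289) and 7.05 to 51.2 CPM in fat (median 14.4), a 15.2-fold difference. FOXO3, a factor that insulin keeps out of the nucleus, differed by 4.01 ± 0.73 (3.30 without cow 2 and bull 5), with fat values from 0.223 to 28.8 CPM, and GRB14, an inhibitor of the insulin receptor, by 3.5 ± 0.54 at levels of at most 10.2 CPM. SLC2A3, a transporter that works without insulin, was called in fat (-1.75 ± 0.23). The calls of the fructose transporter SLC2A5 and of TRIB3, which binds the kinase AKT, were less firm. SLC2A5 rested on 77 reads in fat and 2 in muscle and lost its call in all fits with an animal left out except the one without cow 3, and also without cow 2 and bull 5 together and in DESeq2 and limma voom. TRIB3 (-1.95 ± 0.38) lost its call without animal as a block (-1.73) and in DESeq2 and limma voom.

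Of the factors that make and pattern muscle 21 of 23 were called in muscle and none in fat (median 4.63). MYOG and MYOD1, which start the differentiation of muscle cells, had 8232 and 2125 reads in muscle against 2 and 1 in fat. SMYD1, a methyltransferase needed for sarcomere assembly, was at 273 to 1018 CPM in muscle and 0 to 1.06 CPM in fat (11.66 ± 0.53). Factors that mark body regions divided: TBX15, known from the trunk and from subcutaneous fat, was at 77.1 to 233 CPM in muscle and 1.19 to 11.8 CPM in fat (4.36 ± 0.43). TCF21, a factor of visceral mesoderm, was called in fat on 159 reads against 3 (ratio 27.4, 95% counting interval 9.22 to 134). TBX5, a factor of heart and forelimb, was called there too, at 0.149 to 4.73 CPM against 0 to 0.664 CPM (-3.57 ± 0.43). Of 14 regional factors tested, 4 were called in fat and 1 in muscle (median -0.54).

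Receptors and enzymes for steroids, retinoids and thyroid hormone showed no common direction, with 4 of 22 called in muscle and 2 in fat and a median of 0.30 that turned to -0.48 by library size alone. ESR1, the oestrogen receptor, was at 18.2 to 111 CPM in muscle (median 43.3) and 0 to 12.5 CPM in fat (median 1.45), with no overlap (5.13 ± 0.90, and 4.45 without cow 2 and bull 5), and the highest fat value was that of cow 1. CYP19A1, the aromatase that makes oestrogens, was at 0 to 4.68 CPM in muscle and 0 to 0.648 CPM in fat (3.33 ± 0.51). HSD17B12, which acts on both oestrone and long fatty acids, was at 139 to 575 CPM in fat and 32.6 to 76.5 CPM in muscle (-2.48 ± 0.17). RBP4, described above, was the other member called in fat.

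Of 29 collagen, elastic fibre and proteoglycan genes 9 were beyond 2-fold higher in fat and 0 in muscle, and the median was -1.04. Without a fold threshold 19 passed in fat and 1 in muscle, where 31.1% and 26.7% of all genes did. SPARC, a collagen-binding protein and the most counted gene of fat, was at 8417 to 19553 CPM in fat and 1164 to 3006 CPM in muscle (-2.87 ± 0.21). COL1A1, COL1A2 and COL3A1, the fibrillar collagens, differed by -2.33 ± 0.46, -2.47 ± 0.39 and -2.12 ± 0.31, and COL5A3 by -2.62 ± 0.13. In fat COL1A1 ran from 577 to 12104 CPM, a wide spread that reached into the muscle range of 342 to 2165 CPM. VIM, the intermediate filament of mesenchymal cells, was at 2997 to 15458 CPM in fat and 423 to 1695 CPM in muscle (-3.04 ± 0.34).

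Basement membrane and integrin genes were called on both sides, 5 of 19 in fat and 4 in muscle (median -0.73). COL18A1 was at 324 to 2512 CPM in fat and 26.1 to 112 CPM in muscle (-3.59 ± 0.20), and COL4A1 differed by -1.60 ± 0.14. In muscle, ITGB1BP2, the integrin partner melusin, was at 9.03 to 61.3 CPM against 0.552 to 10.1 CPM in fat (4.01 ± 0.33), and COL4A3 at 0.167 to 6.38 CPM against 0 to 0.843 CPM (3.76 ± 0.43). The muscle integrin ITGA7 (1.77 ± 0.30) and ITGAV (2.71 ± 0.62) were called in muscle, but neither by library size alone, at 0.96 and 1.88. Without cow 2 and bull 5 ITGAV was at 2.07.

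Complement and antigen presentation genes were called in fat for 12 of 27 members and in muscle for 1 (median -1.13). C2 and CFB, whose products form the convertases of the classical and alternative pathways, were at 48.3 to 287 CPM and 192 to 750.0 CPM in fat, and at 0 to 26.0 CPM and 4.07 to 60.9 CPM in muscle. C4A differed by -3.03 ± 0.28.

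Markers of cell types other than adipocytes and fibres were measured in both tissues. Macrophage markers summed to 563 to 1395 CPM in fat and 70.8 to 404 CPM in muscle, with 5 of 6 beyond 2-fold higher in fat, among them C1QA (-2.61 ± 0.44), CD68 (-2.32 ± 0.44) and AIF1 (-1.92 ± 0.37). Endothelial markers summed to 1656 to 2802 CPM and 857 to 1311 CPM, with 4 of 10 called in fat and FLT1, a receptor for vascular growth factor, called in muscle. CLDN5, VWF and ESAM differed by -2.78 ± 0.37, -2.17 ± 0.17 and -1.60 ± 0.20. FLT1 was at 91.4 to 230.3 CPM in muscle and 19.8 to 129.8 CPM in fat (1.59 ± 0.22), and was not called without cow 2 and bull 5 (1.32) or by library size alone (0.78).

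Markers of nerve sheath cells went to both sides, with 3 of 5 called in muscle and 1 in fat. The latter, S100B, which adipocytes also express, was at 288 to 1079 CPM in fat and 29.3 to 155 CPM in muscle (-2.65 ± 0.29). Smooth muscle markers summed to 513 to 4950 CPM in fat, highest in bull 5, and 689 to 1267 CPM in muscle, and 1 of 7, LMOD1, was called in muscle (2.16 ± 0.34), though not by library size alone (1.36). Lymphocyte markers summed to at most 33.0 CPM, 3 of 7 had means under 1 CPM in both tissues, and none was called.

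Mesothelium covers abdominal fat, and 2 of its 7 markers tested were called in fat. KRT19 was at 0.455 to 35.9 CPM there (-2.80 ± 0.73). The defining marker MSLN stayed at 0 to 1.25 CPM, and its call was lost without cow 2 and bull 5 and in DESeq2 and limma voom. Liver markers summed to 45.6 to 465 CPM in fat and 13.7 to 147 CPM in muscle, and of 8, APOA1 (-3.13 ± 0.47) and TTR (-2.2 ± 0.42) were called in fat. APOA1 was at 159 and 325 CPM in the fat of cow 2 and bull 5 and at 7.04 to 47.8 CPM in that of the other 8 animals. None of 8 pituitary markers was called. The part of these cell types in the values of other genes was not tested.

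Ribosomal protein genes and the reference genes of the study's qRT-PCR are often taken to be even between tissues. Of 75 ribosomal protein genes 2 were beyond 2-fold higher in fat, RPL3 (-1.78 ± 0.24) and RPS4X (-1.47 ± 0.22), and 22 passed without a fold threshold in fat, near the 31.1% of all genes, against 1 in muscle, where 26.7% of all genes did. The median was -0.51, and by library size alone 30 were beyond 2-fold higher in fat. RPS4X lost its call without cow 5, bull 4 or bull 5, without cow 2 and bull 5 together (-1.35, edgeR adjusted p against 2-fold = 0.073), and in DESeq2 and limma voom. As a group these genes took 1.08% to 8.24% of the reads in fat and 0.662% to 2.32% in muscle, higher in fat in 9 of 10 animals (exact sign-flip permutation test, two-sided p = 0.00391, adjusted over 8 measures 0.00521). Cow 5, whose fat had the lowest share, was the exception.

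None of the 4 reference genes was beyond 2-fold. ACTB, cytoplasmic actin, was at 599 to 4410 CPM in fat (median 1741) and 547 to 1028 CPM in muscle (median 676), a difference of -1.33 ± 0.29 that passed without a fold threshold and, without cow 5, also against 2-fold. RPS9 differed by -0.82 ± 0.36, which passed without a fold threshold, but not when any of 6 animals was left out. The fat of bull 5 held RPS9 at 2265 CPM, against at most 524 CPM in the other fat libraries. RPLP0 had the smallest difference (-0.23 ± 0.32). GAPDH, usually one of the most abundant messengers, had 1 read in the 20 libraries together, so these tables hold no measurement of it.

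The difference between fat and muscle was next set against the sex of the animal. No gene passed the test of the tissue by sex term (0 of 12880, 0%), 662 genes (5.14%) had an unadjusted p under 0.05, and the smallest adjusted p in edgeR's quasi-likelihood test was 0.527. The likelihood ratio test in edgeR called 14 genes and DESeq2 20. For LYZ, the antibacterial enzyme lysozyme, the log2 fold change was -0.03 in cows and -2.68 in bulls. That of ZMYND17, also known as MSS51, a mitochondrial factor of fast muscle, was 2.06 in cows and 4.04 in bulls, and that of SH3KBP1, an adaptor of receptor uptake, 2.18 in cows and -0.02 in bulls. PVALB had log2 fold changes of -2.61 in cows and -6.71 in bulls. ANKH, ENTPD2, CD9 and SARDH were also among the 10 genes with the smallest p. Without cow 4, 3 genes passed, CHRNA1, PCK1 and RSPO3, which were named after their values were seen.

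Finally, genes were sought whose level followed the animal in both tissues. With sex and tissue in the model, 103 genes (0.8%) differed between animals of the same sex in edgeR's quasi-likelihood test. The likelihood ratio test called 1936 and DESeq2 2173. For 68 of the 103 genes the same animal was highest in fat and in muscle, and for 50 that animal was cow 4. The test that chose the 103 genes favours such agreement, and the share over all genes is not given here. The test does not require a difference in both tissues. The correlation of log levels between fat and muscle had a median of 0.821 over the 103 genes, but was 0.0915 for MYOG. The number of genes called depended on the animals, from 6 genes without cow 4 to 209 without bull 5, and 346 without cow 2 and bull 5.

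Among the 10 genes with the smallest p were 4 of the major histocompatibility complex, whose products present peptides to T cells and vary greatly between individuals. BOLA-DQB was at 11.7 and 12.5 CPM in fat and muscle of cow 1, at 41.2 and 25.6 CPM in cow 2, at 17.9 and 7.78 CPM in bull 2 and at 22.8 and 5.60 CPM in bull 3. In the other 6 animals it was at 0 to 0.697 CPM in either tissue. JSP.1, a class I gene, was at 380.4 and 574 CPM in cow 5 and at 2.67 and 2.23 CPM in bull 4. LA-DQB and BOLA-DQA5 also differed between animals, but their highest animal was not the same in both tissues. LA-DQB was highest in the fat of bull 5 and the muscle of cow 3, and BOLA-DQA5 in the fat of bull 3 and the muscle of cow 1. These 4 genes have near-identical copies and many alleles, and reads were aligned to 1 reference genome, so their counts are uncertain.

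PRSS2, a trypsinogen gene that overlaps LOC509513 in the RefSeq annotation, was at 114 and 25.0 CPM in cow 2, 7.05 and 9.62 CPM in cow 5, 20 and 6.06 CPM in bull 2 and 29.9 and 6.36 CPM in bull 3, and at most 0.0810 CPM elsewhere. BOLA-DQB, JSP.1, LA-DQB, PRSS2 and FDX1, of which FDX1 was singled out after its values were seen, were the 5 genes called in every fit that left out 1 animal. Other leading genes were highest in cow 4. LOXL4, a collagen crosslinking enzyme, was at 274 and 106 CPM in its fat and muscle, against medians over the 10 animals of 45.0 and 26.1 CPM. P4HA3, a collagen hydroxylase, NRADD and SLCO4A1 were also highest in cow 4 in both tissues.

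**Figure D5:**
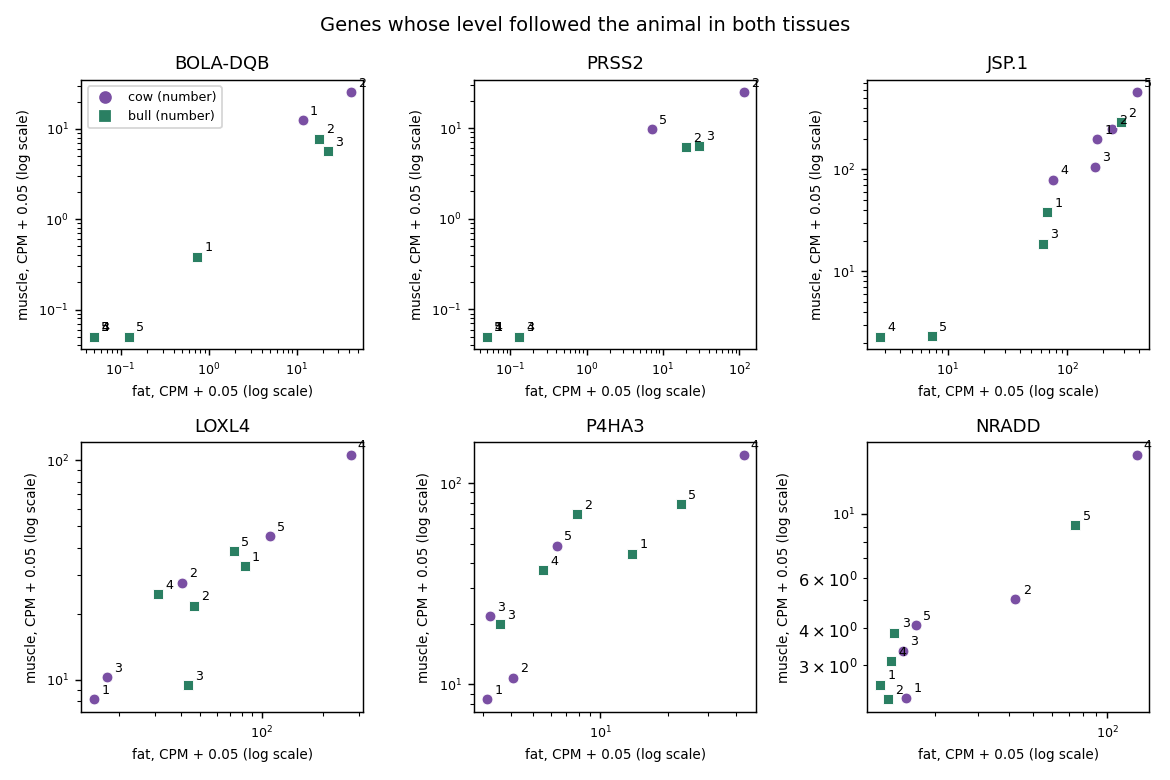
Level in fat (x axis) against level in muscle (y axis) of 6 genes, as CPM + 0.05 on log axes, with 1 point per animal numbered by its label. For BOLA-DQB and PRSS2 4 animals lie above 5 CPM in both tissues and the others below 1 CPM, and cow 4 lies at the upper right for LOXL4, P4HA3 and NRADD.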

How the data were processed

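Total RNA was isolated from abdominal fat, longissimus dorsi muscle, liver and pituitary gland of 10 Korean cattle. Its poly-A-selected mRNA was sequenced as paired-end reads. The authors trimmed adapters with Trimmomatic, aligned with Bowtie2 within TopHat2 to the UCSC bosTau7 assembly, and deposited 1 HTSeq table of raw counts per sample, covering uniquely aligned reads on 13570 UCSC genes without normalization or filtering; SAMtools is also named in the processing notes. The counting mode and strand setting are not given in the sources used here, so overlapping and antisense genes cannot be told apart, and genes with near-identical copies are counted too low. A row without a gene name (0.114% to 2.69% of reads) and the HTSeq summary rows were left out. Of the gene symbols, 12500 matched a RefSeq symbol (ARS-UCD2.0, used for names and overlaps only) and 13387 a symbol or synonym. KLHL40, KLHL41, PERM1 and MSS51 were found as KBTBD5, KBTBD10, C16H1orf170 and ZMYND17. Of 182 named genes with a matching symbol, 20 overlap another counted gene or a microRNA there. No genome of the build was at hand, so no sequence is printed.

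A gene was tested if any of the 20 fat and muscle samples held a read of it (12880 genes). The fit, in R 4.3.3 with edgeR 4.0.16, had TMM factors, animal as a block and tissue as the effect. glmQLFit and glmQLFTest gave the plain test and glmTreat the test against 2-fold, with Benjamini-Hochberg adjustment over all genes and a threshold of 0.05. A tissue by sex term and an effect of animal within sex were tested likewise. Log2 fold changes are coefficients of the edgeR fit. The errors beside them are SEs over the 10 paired differences in log2 CPM, computed with a small count added to each value. The SE is thus of a separate estimate, and may be too small where a tissue had few reads. Library measures were compared by exact sign-flip permutation. The pairing comes from the animals themselves. After removing the mean of each sex and tissue, fat and muscle libraries of the same animal correlated at -0.058 to 0.517 (median 0.313, over 0.1 in 7 of 10, 10166 genes). In 8 of 10 animals the fat correlated more with its own muscle than with the muscle of any other animal of the same sex. This did not hold in bull 3 (-0.058 against 0.13) or bull 5 (0.039 against 0.307). Replicates are separate animals. Steps were tested on simulated data. Counting intervals are 95%, a floor of 3 reads stands for a count of 0, and both cover counting error only, since reads carry no molecular identifiers.

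The comparison and the gene lists were chosen with earlier results of these data known. Some genes stand on 2 lists: SREBF1, UCP3, TBX15, RBP4, GAPDH, RPS9, RPLP0 and C1QA, every adipocyte marker, and every fibre marker except MB. Counts of lists that share genes are therefore not independent. Named genes are the 8 with the largest change each way that had groups without overlap and a mean of at least 100 CPM, the 3 largest calls and every opposite call of each list, all isozyme families, the reference genes, the 10 smallest p for the sex term and for animals, the 10 most counted genes per tissue, and XIST and 3 Y-linked genes. KIF5B, DDX3X and CFD were chosen after their values were seen. Alternatives were DESeq2 1.42.0, limma 3.58.1 voom, edgeR's likelihood ratio test, other scalings, filterByExpr, no block, each sex alone and each animal left out. Leaving out cow 2 and bull 5 was added after seeing the data. Some genes that this rule named are not reported here.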

Additional observations from a re-analysis of the deposited data

Results flagged for a closer look

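In 96 groups of 10 samples the highest and lowest values were tested by Dixon's rule, and in 31 of them a sample stood far from the others. The rule flags about 1 in 20 groups by chance only if values are normally distributed. Most of these values were CPM without a log, and all groups came from the same 20 libraries. The rate by chance is therefore not known here. Most of these values came from 2 animals.

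The fat of bull 5 was far from the other fat libraries in 11 measures. Its TMM factor was 1.0, below the next value of 1.31, and its share of ribosomal protein genes 8.24% against at most 4.31%. It was highest for CIDEC (5152 CPM), LEP (2133 CPM), G0S2 (2925 CPM), SNCG (457 CPM), PCK2 (964 CPM), PVALB (187 CPM), COX6A1 (423 CPM), RPS9 (2265 CPM) and RPLP0 (2963 CPM).

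The muscle of cow 5 was the highest muscle library for FABP4 (165 CPM), THRSP (164 CPM), CIDEC (177 CPM), LEP (53.4 CPM), QPRT (5.57 CPM), PCK2 (18.5 CPM), RBP4 (117 CPM), CFB (60.9 CPM) and PVALB (5.82 CPM), all of which were called in fat, and for UCP3 (2514 CPM), which was called in muscle. The fat of cow 5 was the highest fat library for the fibre genes ACTA1 (49.6 CPM), MYBPC1 (13.6 CPM), CKM (14.2 CPM) and MYOT (8.64 CPM).

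The remaining values were FASN in the fat of cow 4 (19199 CPM), PC in that of cow 2 (896 CPM), S100B in that of cow 3 (1079 CPM), CEBPA in that of bull 2 (179 CPM), ESR1 in that of cow 1 (12.5 CPM), and COX6A2 in the muscle of bull 3 (576 CPM).

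The row without a gene name, which entered no comparison, took 0.448% to 2.69% of the reads in muscle and 0.114% to 0.171% in fat, higher in muscle in 10 of 10 animals (exact sign-flip permutation test, two-sided p = 0.00195). Which genes it holds was not tested.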

How the results depend on the processing

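Every one of 162 named genes kept its direction in the settings tried except GAPDH, which rests on 1 read and had a log2 fold change of 0.83 in limma voom. Of 3229 values of named genes, 3186 kept direction and side of the threshold, 36 no longer passed and 6 newly passed. Of 735 recomputed counts, 680 stayed within 1.5 times of the reported one. Without animal as a replicate block the counts were 3279 and 3980 genes higher in muscle and in fat, and 1622 and 1866 beyond 2-fold. Of the genes described in the report, GATM and TRIB3 lost their 2-fold call when the block was dropped.

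By library size alone 1714 genes were higher in muscle and 6671 in fat, and 953 and 4014 beyond 2-fold. Among lists the calls beyond 2-fold in the leading direction then became 8 for adipogenic factors, 3 for the tricarboxylic acid cycle, 4 for oxidative phosphorylation, 21 for collagens, 11 for basement membrane, 19 for complement, 30 for ribosomal proteins and 0 for smooth muscle.

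Fits of 1 sex held 5 animals. In cows alone 2596 genes were higher in fat and 1043 beyond 2-fold, with 9 tricarboxylic acid cycle, 2 regional, 3 collagen, 2 basement membrane, 7 complement, 1 steroid, 0 ribosomal, 2 macrophage, 0 mesothelium and 1 liver gene called. In bulls alone oxidative phosphorylation had 7 calls, collagens 14, ribosomal proteins 4, endothelium 2 and mesothelium 1. DESeq2 and limma voom each gave 6 oxidative phosphorylation, 1 ribosomal and 1 mesothelium call, and filterByExpr gave 2 regional and 1 mesothelium. Without cow 2 and bull 5 there was 1 ribosomal and 1 mesothelium call. The causes were not tested.

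The tissue by sex term called 14 genes in the likelihood ratio test, 20 in DESeq2 and 0 to 3 without 1 animal. The effect of animal called 1936 and 2173 genes in those tools, 346 without cow 2 and bull 5, and, without 1 animal, 6 (cow 4), 27 (cow 3), 34 (cow 1), 59 (bull 4), 165 (bull 3), 174 (cow 5) and up to 209 (bull 5). Low counts limit RETN, SLC2A5, MOGAT1, TCF21 and MSLN, and a level of a muscle gene in fat is limited by its few reads.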

Other observations

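The share of uniquely aligned reads outside genes was 34.5% to 46.9% in fat and 35.8% to 53.3% in muscle, higher in muscle in 7 of 10 animals (exact sign-flip permutation test, two-sided p = 0.15, adjusted over 8 measures 0.172). The biological coefficient of variation within a tissue was 0.527 for fat and 0.398 for muscle. In the fat of cow 5 the ribosomal protein gene RPL37 was at 6.97 CPM, against at least 86.6 CPM in the other fat libraries except those of cow 2 and bull 5, at 196 and 771 CPM. DDX3Y, the Y-linked relative of DDX3X, was at 0.149 CPM in the fat of bull 5.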
